A study of Mus musculus with 2 samples.

Results

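The genes described here encode components of the Notch, Wnt and Hedgehog pathways in the testis of 10-day-old mice that lack, or carry 1 intact copy of, the gene for MILI. They were chosen by name, as every gene whose symbol begins like a Notch receptor or ligand, a Hes or Hey repressor, a Wnt ligand, a Frizzled receptor, an Sfrp antagonist, a Dishevelled, Axin, Tcf7 or Lef1 gene, or is a hedgehog ligand, a Ptch gene, Smo or a Gli gene. That rule gave 53 of the 8251 genes with a probe set assigned to 1 symbol, read by 70 probe sets. A gene took its probe set with the highest mean signal over the 2 arrays. The rule uses names only and no measured value. A further 16 protein-coding genes in RefSeq match it, Jag1, Dll4, Heyl and Tcf7 among them, and are not analysed here.

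The study compared testes of Mili+/- mice, which keep 1 working allele and serve as the control, with testes of Mili-/- mice, both at day 10 after birth. MILI, the product of Piwil2, is a Piwi protein of germ cells and a partner of piRNAs. According to the labels, spermatogenesis in the knockout stops in the prophase of the first meiotic division and dying cells appear from day 11, so day 10 was chosen to precede them. There was 1 array of polyadenylated RNA per genotype. The sources used here give neither the number of mice behind an array nor the strain or the design of the mutation.

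Both arrays are single measurements, so no value has a replicate error, no test across animals could be made and no p-value is given. The values are linear signals, which were converted to log2 and set relative to the median of their array, and a difference is Mili-/- minus Mili+/-. A gene was compared where its signal reached the array median (38.5 in Mili+/-, 41.55 in Mili-/-) on at least 1 array, which 5095 genes did. Their median difference was -0.13, and this value, not 0, is the level from which a gene is called above or below here. Fold differences and fold limits are counted from 0 instead. The values as deposited stand 0.11 higher throughout. The available yardstick of error is the SD of 0.31 (log2) between probe sets of the same gene, from 720 genes, which covers neither animals nor hybridisations. No probe set was assigned to Piwil2, so the knocked-out transcript could not serve as a check of the labels. Markers of the labelled tissue were bright on both arrays: Dazl of germ cells had signals of 1342 and 1191 (Mili+/- first, here and throughout), Clu of Sertoli cells 2363 and 2636, Acta2 of peritubular cells 1121 and 1219, and Cyp17a1 of Leydig cells 283 and 237.

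Notch, Wnt and Hedgehog signals are short-range cues between neighbouring cells. A Notch receptor is cut when a Jagged or Delta ligand on the next cell binds it, and its freed intracellular part joins the DNA-binding protein RBPJ to switch on Hes and Hey repressors. Secreted Wnt proteins bind Frizzled receptors, Dishevelled then restrains the Axin scaffold that marks beta-catenin for destruction, and beta-catenin acts through TCF and LEF factors. A hedgehog ligand binds Patched, which releases Smoothened and lets Gli factors act; in the testis, Desert hedgehog made by Sertoli cells signals to Leydig and peritubular cells.

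Few genes of these pathways differed by 2-fold between the arrays. Of the 53 genes, 27 passed the brightness filter (50.9%, against 61.8% of all genes), and among these Wnt5b was the only gene at least 2-fold higher and Jag2 the only one at least 2-fold lower in Mili-/-. The same limit was reached by 0.314% of all genes past the filter on the higher side and by 0.530% on the lower, and at 3-fold by 0.0589% and 0.137%, with Jag2 the one pathway gene among the latter. The median difference of the 27 was -0.06, against -0.13 over all genes, with 15 above and 12 below the latter. None of the 27 moved to the other side of that median with quantile normalization or with loess, although 8 with values near 0 changed sign. Leaving out the centring shifts all genes alike, so it cannot move a gene across that median.

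**Figure D1:**
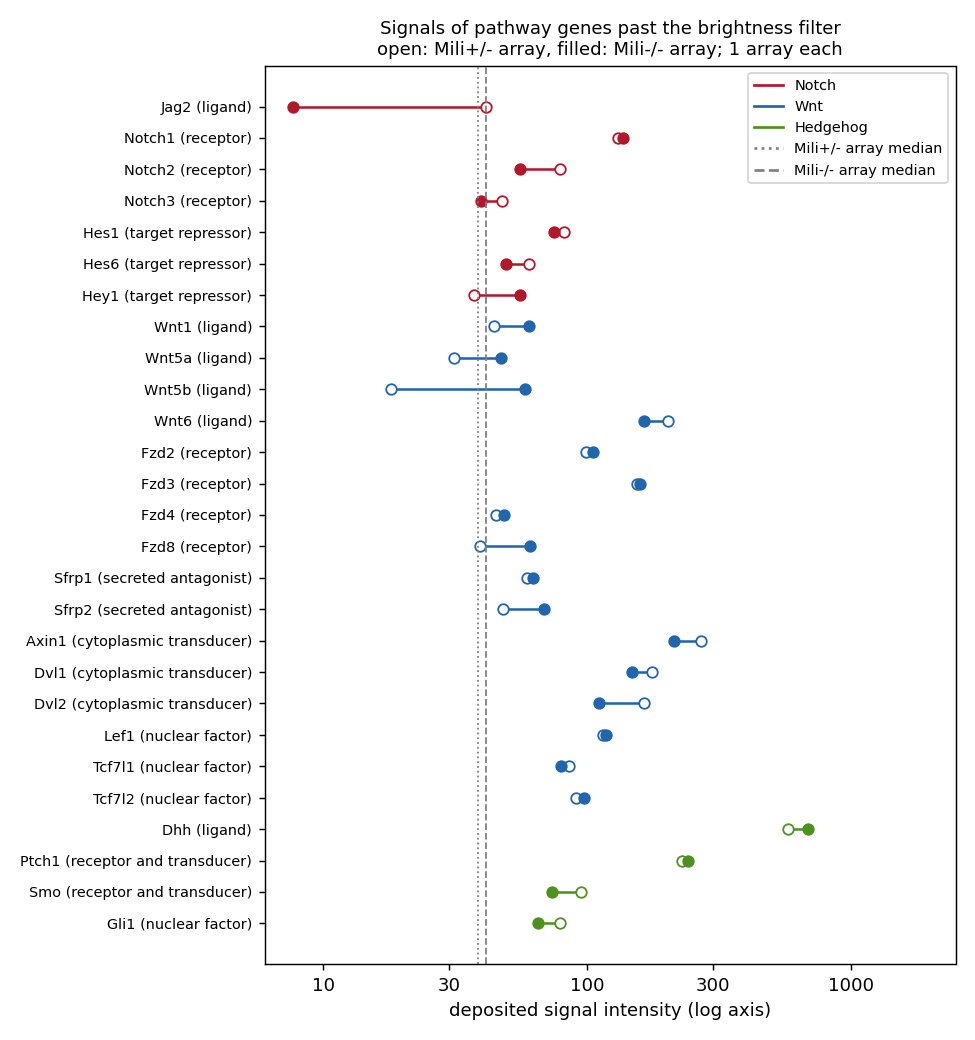
Deposited signal (log axis) of the 27 pathway genes past the brightness filter, with the Mili+/- array as open and the Mili-/- array as filled points, 1 array each, and the array medians as vertical lines. Jag2 (41.3 and 7.7) and Wnt5b (18.1 and 58.4) have the longest lines, and each lies below the median on 1 array.

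Notch ligands came down to a single gene past the filter. Jag2, a Jagged ligand, gave 41.3 on the Mili+/- array and 7.7 on the Mili-/- array. Its Mili+/- signal lay just over the median of that array and its Mili-/- signal just over the floor of 7 set at the 20th percentile. The log2 difference was -2.53, 5.79-fold lower, beyond the central 95% of the 1019 genes in its brightness bin (the dimmest of 5 equal bins of genes past the filter; -0.93 to 0.86), where 2.55% of genes lie beyond each end over all bins. With the floor at the 40th percentile it was -0.85, under 2-fold. Jag2 was read by 1 probe set, so no second reading of it exists, and only its Mili+/- signal reached the filter, a selection that by itself favours low differences. The other Notch ligand, Dll1, encodes a Delta-like protein and was dim, with 4.7 and 6.4. A further probe set of Dll1 had 1.4 and 1.1, so all its readings lay under the floors of 6.3 and 7.

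The promoter of Jag2 is shown because it belongs to the gene with the largest difference. All promoters printed here are the 250 bases before the annotated start, 5′ to 3′ on the gene's strand, from RefSeq on GRCm38.p6, and capitals mark a match on either strand to TGGGAA, the core that RBPJ binds, to CTTTGAT, a TCF and LEF core, or to GACCACCCA, the Gli consensus. No binding was measured, so a match is a description of the letters.
Jag2, chr12:112929496-112929745 (-): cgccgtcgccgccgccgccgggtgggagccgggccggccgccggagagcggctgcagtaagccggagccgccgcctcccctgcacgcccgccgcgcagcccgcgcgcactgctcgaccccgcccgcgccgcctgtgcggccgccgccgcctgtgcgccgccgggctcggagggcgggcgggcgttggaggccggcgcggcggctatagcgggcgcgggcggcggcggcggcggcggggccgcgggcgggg
The window was made of G and C at 87.2% of its bases and held none of these motifs.

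Of the 3 Notch receptors past the filter, Notch1 lay just above the median of all genes and Notch2 and Notch3 below it. Notch1 had signals of 132 and 137, a log2 difference of -0.06. Notch2 had 78.8 and 55.7 (-0.61), the lowest of the receptors, while its second probe set, dim at 8.4 and 16.9, went the other way (0.90). Notch3 had 47.5 and 39.5 (-0.38), and only its Mili+/- signal reached the filter. The distance from the median of all genes exceeded the probe set SD of 0.31 for Notch2 and stayed under it for Notch1 and Notch3. A second probe set of Notch1, with 19.4 and 27.5, stood at 0.39 and did not reach the filter. Notch4, a receptor of endothelial cells, was dim in both of its probe sets, with 2.2 and 19.5 in the one chosen by the rule and 10.6 and 9.6 in the other.

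The Hes and Hey genes, only some of which Notch switches on, did not go one way. Hes1 had signals of 81.8 and 75.1 (-0.23), within 1 SD between probe sets of the median of all genes. Hes6, a relative that opposes Hes1, had 60.5 and 49.5 (-0.40). Hey1, which is prominent in blood vessels, was the only Notch gene past the filter to stand above the median by more than that SD, with 37.3 and 55.8 (0.47), and only its Mili-/- signal reached the filter. Beside it, the 2 endothelial markers past the filter, Pecam1 (34.7 and 51.2) and Cdh5 (98.2 and 145), were also higher; Tek, Kdr, Tie1 and Vwf were below it, and the summed signal of all 6 was 199.8 and 291; their part in the value of Hey1 was not tested. Hes2, Hes3 and Hes5 were dim, between 4.8 and 18.9 in Mili+/- and between 15 and 23.9 in Mili-/-, and all 3 read higher in Mili-/- below the filter.

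Hes5 is shown as a textbook Notch target whose promoter carries the RBPJ core more than once.
Hes5, chr4:154960673-154960922 (+): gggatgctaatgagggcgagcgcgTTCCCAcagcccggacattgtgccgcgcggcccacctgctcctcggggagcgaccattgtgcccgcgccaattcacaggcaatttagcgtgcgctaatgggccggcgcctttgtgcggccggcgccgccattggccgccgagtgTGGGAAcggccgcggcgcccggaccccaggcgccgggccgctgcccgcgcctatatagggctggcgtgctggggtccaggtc
Matches to TGGGAA or its complement begin 226 and 82 bases before the start, the first as TTCCCA. The array adds little on this gene: 1 probe set had 8.7 and 15.0 and the other 8.5 and 11.9, all far below the array medians. Among the 45 RefSeq windows of 36 matched pathway genes, 5 held TGGGAA (Dvl1, Hes5, Tcf7l1, Wnt3 and Wnt5b), and 21.6% of all 32851 windows searched did. Windows on 1 chromosome were left out of both counts. CTTTGAT was found in 2 of the 45 (Wnt11 and Wnt5b) against 3.21% of all, and GACCACCCA in 0 of the 45 against 0.225%.

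Wnt ligands were mostly dim, and those that passed the filter were spread widely. Wnt5b, a ligand known for signalling outside beta-catenin, gave 18.1 on the Mili+/- array and 58.4 on the Mili-/- array. The Mili+/- value lay below and the Mili-/- value above the array median, a log2 difference of 1.58 (2.99-fold higher), outside the central 95% of genes of like brightness. It stayed above 2-fold with the floor at the 40th percentile (1.26). Wnt5a, its close relative, had 31.3 and 47.3 (0.49). Wnt1, the founding member of the family, had 44.3 and 60.4 (0.34). Wnt6 went the other way, with 203 and 165 (-0.41). For Wnt5a and Wnt5b only the Mili-/- signal reached the filter, which by itself favours high differences, and each of these ligands had 1 probe set.

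RefSeq lists 3 starts for Wnt5b, printed in coordinate order because the probe set does not tell which of them was in use.
Wnt5b, chr6:119449387-119449636 (-): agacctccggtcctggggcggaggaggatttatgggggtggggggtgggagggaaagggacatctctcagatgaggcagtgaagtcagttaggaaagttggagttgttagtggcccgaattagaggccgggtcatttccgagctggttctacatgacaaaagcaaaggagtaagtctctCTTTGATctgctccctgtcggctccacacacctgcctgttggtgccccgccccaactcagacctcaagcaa
Wnt5b, chr6:119467212-119467461 (-): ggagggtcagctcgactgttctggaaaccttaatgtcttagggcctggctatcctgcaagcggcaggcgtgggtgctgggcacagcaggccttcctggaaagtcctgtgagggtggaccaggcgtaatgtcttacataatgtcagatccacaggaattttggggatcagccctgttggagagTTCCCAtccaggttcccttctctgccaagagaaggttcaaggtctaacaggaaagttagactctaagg
Wnt5b, chr6:119544348-119544597 (-): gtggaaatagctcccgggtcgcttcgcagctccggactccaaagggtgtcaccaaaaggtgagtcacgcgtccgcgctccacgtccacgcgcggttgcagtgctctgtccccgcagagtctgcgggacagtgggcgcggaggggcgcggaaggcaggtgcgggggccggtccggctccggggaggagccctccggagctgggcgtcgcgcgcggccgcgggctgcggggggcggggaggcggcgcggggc
The first holds CTTTGAT beginning 71 bases before its start, the next TTCCCA beginning 68 bases before its start, and the last neither. Their G and C content was 55.6%, 53.2% and 75.2%.

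The other 10 Wnt ligands, Wnt2b, Wnt3, Wnt3a, Wnt4, Wnt7a, Wnt7b, Wnt8a, Wnt10a, Wnt10b and Wnt11, had signals of at most 17.8 in Mili+/- and 37 in Mili-/-. Of these, 6 read higher and 3 lower in Mili-/-, and Wnt3a read 14.7 on both arrays. Wnt4, a ligand of the early ovary and of steroid-producing cells, had 2.6 and 2.7, under the floor on both arrays. Wnt10a came closest to the filter, with 17.8 and 37. A dim probe set can reflect a poor probe as well as little transcript, so these values are not read as absence.

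Frizzled receptors past the filter all lay above the median of all genes. Fzd2 (99.0 and 105; -0.02), Fzd3 (154 and 159.6; -0.06) and Fzd4 (45.1 and 48.5; -0.01) were nearer to it than the SD between probe sets. Fzd8 had 39.4 and 60.6, a log2 difference of 0.51, which was 0.64 above the median of all genes a departure exceeded among the 27 genes past the filter by Jag2 and Wnt5b alone. Only Fzd3 had a second probe set past the filter, at 57.7 and 51.7 (-0.27), below the median of all genes. The chosen probe sets of Fzd3 and Fzd4 have a suffix that marks sequence shared with other transcripts, and without such probe sets Fzd4 (like Tcf7l2) had no value. Fzd1, Fzd6, Fzd7 and Fzd9 did not pass, and Fzd7 (37.8 and 37.0) missed the filter narrowly.

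The Sfrp genes encode secreted decoys that bind Wnt proteins. Sfrp2 had signals of 48.0 and 68.6 (0.41), more than the SD between probe sets above the median of all genes. Sfrp1 had 59.4 and 62.2 (-0.04), close to it. Sfrp4 had 36.9 and 35.8 and missed the filter.

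The 3 cytoplasmic transducers of the Wnt pathway past the filter lay below the median of all genes. Dvl1 and Dvl2 encode Dishevelled proteins and Axin1 the scaffold of the beta-catenin destruction complex. Dvl2 had signals of 164 and 111 (-0.67), Axin1 had 271 and 214 (-0.45), and Dvl1 had 176 and 149 (-0.35). All 3 were below the median of all genes as centred here, after quantile normalization and after loess. The values as deposited cannot differ from the centred ones in this. Over all these settings the differences lay between -0.20 and -0.67. Dvl2 and Axin1 lay more than the SD between probe sets below the median of all genes, and Dvl1 did not. All 3 stayed inside the central 95% of genes of like brightness; 3.14% of the genes in its brightness bin stood lower than Dvl2 and 7.95% lower than Axin1. A second, dim probe set of Dvl2 read 6.6 and 9.5 and was higher in Mili-/- (0.42), and the mean over both stood at -0.13. Dvl3 (14.9 and 6.2) and Axin2, a common target of beta-catenin (16.5 and 10.4), also read lower but were below the filter on both arrays.

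The nuclear factors of the pathway were close to all other genes. Lef1 had 115 and 118 (-0.08), Tcf7l2 had 91.0 and 97.8 (-0.01), and Tcf7l1, which mainly represses, had 85.6 and 79.6 (-0.21). A second probe set of Tcf7l1 past the filter gave 86.6 and 62.9 (-0.57), lower than the first by more than the SD between probe sets. For Lef1 the second probe set (13.2 and 6.5) was dim and stood at -1.03, and for Tcf7l2 (14.5 and 19.0) at 0.28.

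The hedgehog ligand of the testis read slightly higher in Mili-/-. Dhh, which encodes Desert hedgehog, had signals of 579 in Mili+/- and 690.1 in Mili-/- (0.14). The chosen probe set has a suffix for shared sequence, and another without one gave 289 and 346 (0.15), so the readings differed by far less than the SD of 0.31, and both were higher in Mili-/- as deposited and after centring. The distance of Dhh from the median of all genes, 0.27, is still under that SD, and 92.1% of genes in its brightness bin stood lower. The remaining probe set of Dhh lay under the floor on both arrays (2.2 and 2.4). Dhh is itself a Sertoli cell gene, and 9 of the 12 measured Sertoli markers, Dhh among them, stood above the median of all genes and 3 (Inhbb, Gata4 and Wt1) below it. They ran from Inhbb (164 and 129.9, a difference of -0.44) to Amh (61.6 and 96.5, 0.54). Their summed signal of 5664 and 6451 includes Dhh itself, and Clu (2363 and 2636) is its largest part. The part of Sertoli cell number in the value of Dhh was not tested. In RNA from whole testis, more cells of a type and more RNA per cell cannot be told apart.

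The promoter of Dhh is shown because its bright probe sets gave the closest readings among the 3 pathway genes with a second one past the filter.
Dhh, chr15:98898541-98898790 (-): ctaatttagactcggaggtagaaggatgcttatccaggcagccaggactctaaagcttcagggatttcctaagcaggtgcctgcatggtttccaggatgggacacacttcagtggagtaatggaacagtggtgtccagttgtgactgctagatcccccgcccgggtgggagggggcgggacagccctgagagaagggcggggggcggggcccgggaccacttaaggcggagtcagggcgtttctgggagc
It held none of the motifs searched.

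Genes that receive hedgehog or respond to it lay on both sides of the median of all genes. Ptch1, the receptor gene and itself a target of the pathway, had 230.2 and 242.5 (-0.03), with a dim second probe set at 31.3 and 38.8 (0.20). Gli1, a transcription factor whose gene is also a direct target, had 78.7 and 65.4 (-0.38), and Smo, the Smoothened gene, had 94.9 and 73.4 (-0.48). Smo lay more than the SD between probe sets below the median of all genes, and Gli1 less than that. Gli2 (17.4 and 10.8), Gli3 (13.9 and 16.4), Shh (16.4 and 20.9) and Ihh (24.0 and 19.0) were dim. Among the marker lists of the receiving cells, 3 of 5 Leydig genes and 3 of 5 peritubular genes past the filter lay below the median of all genes. The summed signals over the 6 measured genes of each list were 1376 and 1577 for Leydig markers (774 and 693 without Nr5a1) and 1995 and 2018 for peritubular markers.

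**Figure D2:**
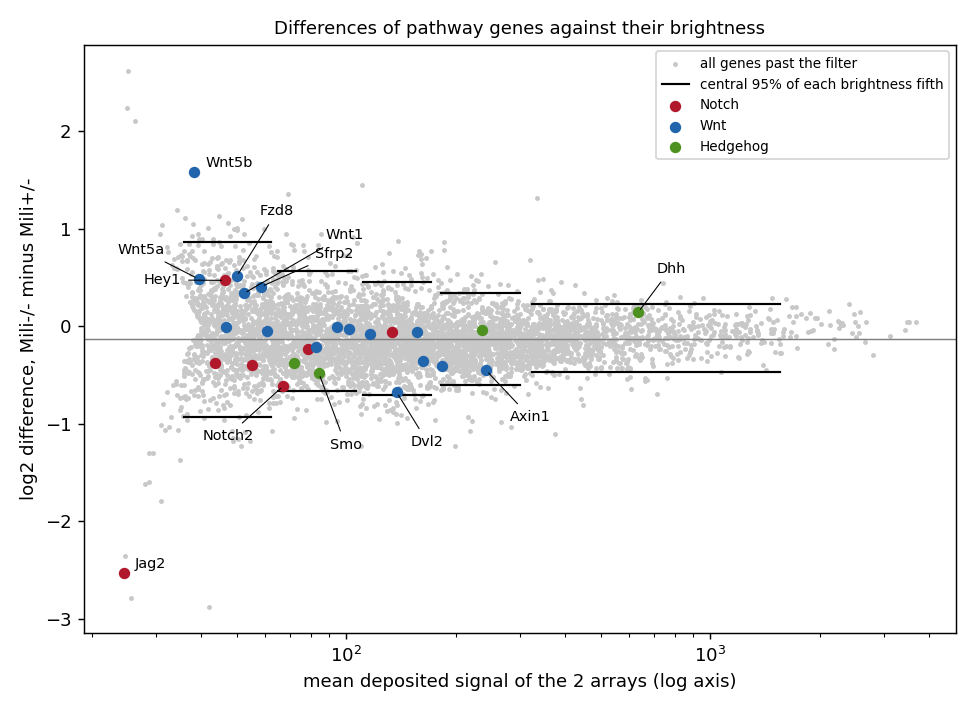
Log2 difference (Mili-/- minus Mili+/-) against the mean signal of the arrays (log axis), with all 5095 genes past the filter in grey and the 27 pathway genes in colour; the horizontal line is the median of all genes (-0.13), and black bars bound the central 95% of each brightness bin, drawn from the 5th to the 95th percentile of its signals. Jag2 and Wnt5b lie outside the bars, and Wnt1, Wnt5a, Fzd8, Sfrp2 and Hey1 lie high at the dim end but inside them.

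Departures upward were found at the dim end. Of the 27 genes, 6 stood more than the SD between probe sets above the median of all genes (Wnt1, Wnt5a, Wnt5b, Fzd8, Sfrp2 and Hey1), as 13.7% of all genes did, and 5 stood as far below it (Jag2, Notch2, Dvl2, Axin1 and Smo), as 12.0% did. All 6 of the higher genes were among the 11 in the dimmest bin, and in that bin 29.1% of all genes stood as high. For Wnt5a, Wnt5b and Hey1, 3 of the 6, only the Mili-/- signal reached the filter, a selection that by itself favours high differences. The lower ones were spread more widely, from Jag2 in the dimmest bin to Axin1 in the next to brightest. Among the 22 genes bright on both arrays, differences ran from -0.67 to 0.51 with an SD of 0.32, against an SD of 0.27 over the 4725 such genes (0.67 and 0.32 past the usual filter), and none reached 2-fold, where 0.0423% of all genes were higher and 0.127% lower. At a 1.5-fold limit counted from 0, Wnt5b was higher (2.47% of all genes were), and Jag2, Notch2 and Dvl2 were lower (5.04% were). This picture depends on the level taken. Counted from the median of all genes, Fzd8 (0.64), Wnt5a (0.61) and Hey1 (0.60) would also be higher. Notch2 (-0.48) and Dvl2 (-0.55) would then not be lower, while Jag2 and Wnt5b would keep their calls.

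Few of the values had a second reading. Of the 53 genes, 14 had more than 1 probe set, and 3 of them, Dhh, Fzd3 and Tcf7l1, had a second one past the filter. The readings were 0.14 and 0.15 for Dhh, both above the median of all genes, and -0.21 and -0.57 for Tcf7l1, both below it. For Fzd3 they were -0.06 and -0.27, on opposite sides of it. Neither Jag2 nor Wnt5b had a second probe set. For Notch2, Dvl2, Lef1 and Fzd4 a dim further probe set lay on the other side of the median of all genes from the bright one.

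**Figure D3:**
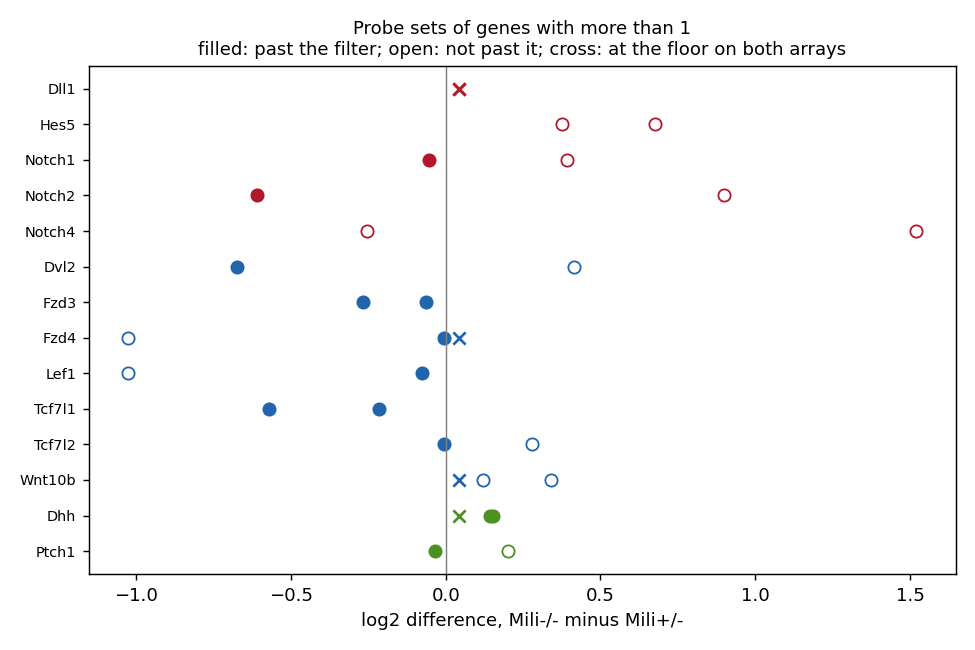
Log2 difference of every probe set of the 14 pathway genes with more than 1; filled points passed the filter, open points did not, and crosses lay at the floor on both arrays. The filled points of Dhh coincide near 0.15, and the open point of Notch2 (0.90) lies opposite its filled one (-0.61).

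Genes that carry these signals but do not match the naming rule held none at 2-fold among those past the filter. Only 0.314% of all genes past the filter were that much higher and 0.530% that much lower. Lists this short therefore say little by holding none. Of the 36 Notch partners listed, 19 were measured and 17 passed the filter, with a median of -0.12. Those with the largest differences were Aph1a (56.5 and 39.4; -0.63) and Psenen (141 and 102; -0.58), subunits of the gamma-secretase that frees the Notch intracellular part, the nuclear cofactor gene Snw1 (149 and 115; -0.48) and Fbxw7 (65.6 and 51.9; -0.45), which directs Notch to degradation. For Aph1a only the Mili+/- signal reached the filter, a selection that by itself favours low differences. The 16 Notch partners bright on both arrays had a median of -0.11. Rbpj itself had 39.2 and 44.6 (0.08). Another subunit of that protease, Psen2, had 64.8 and 64.2 (-0.12), at the median of all genes.

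Of 66 Wnt partners, 42 were measured and 26 passed the filter, with 16 below the median of all genes and a median of -0.21. The corepressor genes Tle1 (117 and 86.6; -0.54), Tle3 (148 and 113; -0.50) and Ctbp2 (179 and 138; -0.48) and the kinase gene Csnk2a1 (108 and 84.2; -0.47) had the largest differences from 0. On the higher side, Apc (0.29) and Frat2 (0.25) lay farther from the median of all genes than Ctbp2 and Csnk2a1 did. Only the Mili-/- signal of Frat2 reached the filter. For Hedgehog, 17 of 33 partners were measured and 11 passed, with a median of -0.09. The largest differences from 0 were in Kif3a (68.1 and 43.9; -0.74), a motor subunit that builds cilia, Prkacb (311 and 236; -0.51), a catalytic subunit of protein kinase A, Tulp3 (246 and 323; 0.28), which carries receptors into cilia, and Ift88 (325 and 296; -0.25), a cilium transport gene. On the higher side, Spop (0.11) and Fkbp8 (0.02) lay farther from the median of all genes than Ift88 did.

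Cell type markers also differed between the arrays. Of the 8 germ cell markers past the filter, 7 lay below the median of all genes, with a list median of -0.48 and a summed signal of 3188 and 2644 over 9 measured genes. The lowest of them, Sall4 (57.4 and 34.7), reached the filter on the Mili+/- array only, and the 7 bright on both arrays had a median of -0.43. All 5 adipocyte markers past the filter lay above it (median 0.90, summed signal 245 and 448), as did the 2 endothelial and the 2 erythroid ones, and 4 of 6 macrophage markers (summed signal 465 and 541). Of the adipocyte markers, 3 reached the filter on the Mili-/- array only, as did 1 endothelial, 1 erythroid and 1 macrophage marker, and the 2 adipocyte markers bright on both arrays had a median of 0.54. The erythroid sum was 1451 and 1916. No measured marker was at a signal of 0, but Sycp3 of meiotic cells (1.1 and 0.6) and Epb42 of red cells (4.0 and 6.6) lay under the floors. The part of these shifts in the values of the pathway genes was not tested.

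**Figure D4:**
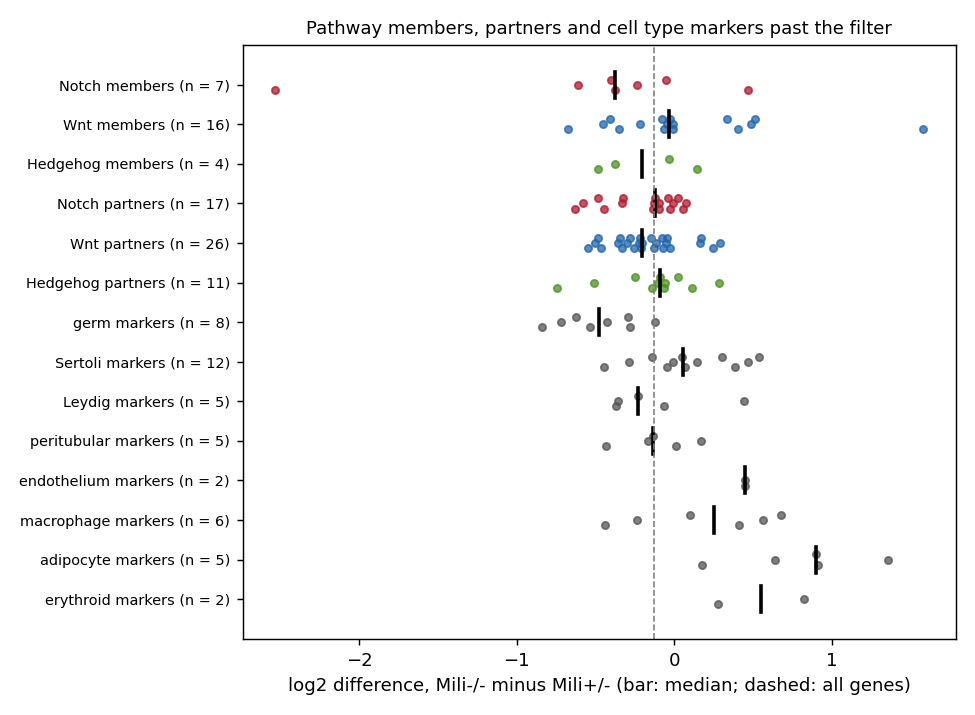
Log2 difference of each gene past the filter, for pathway members, their partners outside the naming rule and cell type markers; bars are medians and the dashed line is the median of all genes (-0.13). Partner genes cluster around that line. Of the 8 germ cell markers, 7 lie to its left (median -0.48, or -0.43 over the 7 bright on both arrays). Adipocyte markers lie to its right (median 0.90, or 0.54 over the 2 bright on both arrays).

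The remaining 26 genes, 49.1% of the 53, did not pass the filter and were not compared. Without the filter, the 2-fold limit was passed by 4 of the 53 genes on the higher and 2 on the lower side, and by 1.90% and 1.79% of all 8251 genes. Beside Wnt5b and Jag2 these were Hes3 (4.8 and 19.6), Notch4 (2.2 and 19.5) and Wnt7b (5.1 and 15.0) on the higher side and Dvl3 (14.9 and 6.2) on the lower. Each of these has 1 signal under the floor, and the second probe set of Notch4 read lower in Mili-/-. In all, 15 of the 26 read higher and 10 lower in Mili-/- as deposited.

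**Figure D5:**
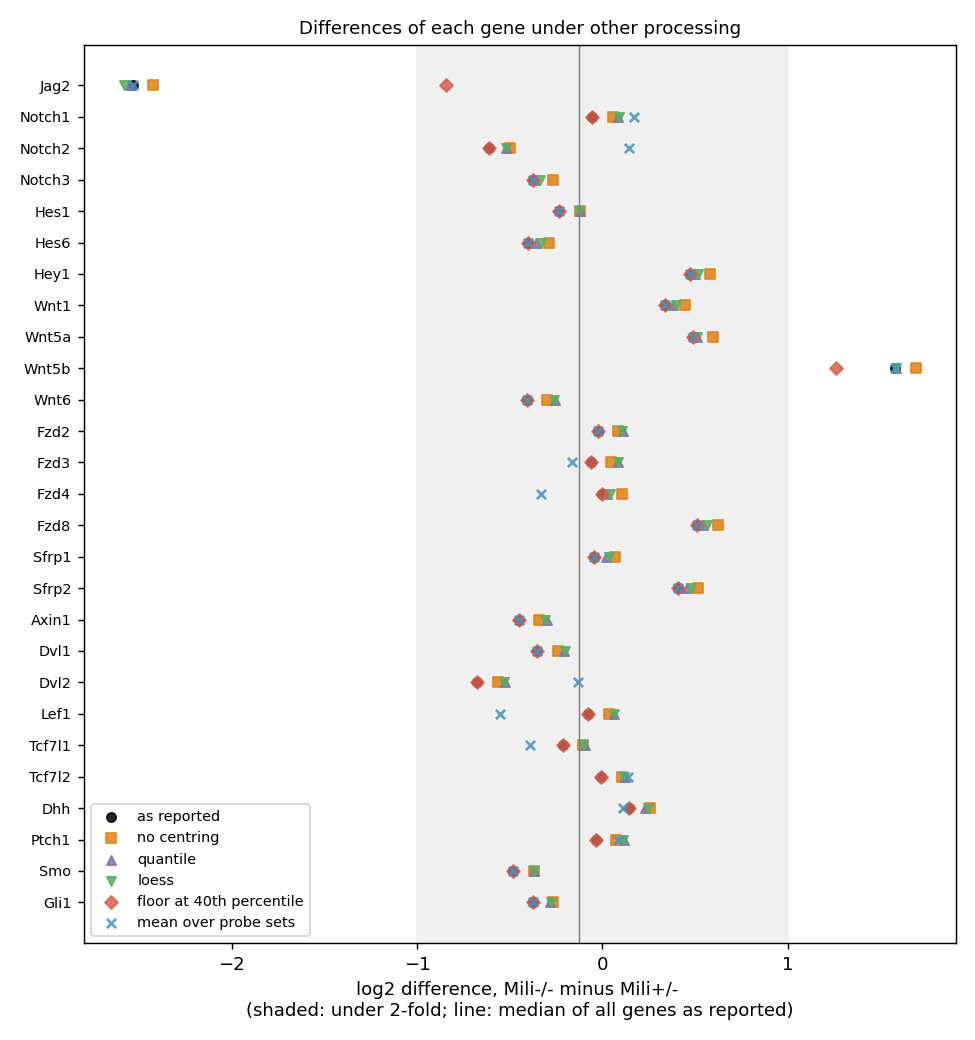
Log2 difference of the 27 genes under the reported processing and 5 alternatives; the shaded band is under 2-fold and the line is the median of all genes. Scaling shifts all genes little, while the higher floor moves Jag2 from -2.53 to -0.85 and the mean over probe sets moves Notch2 from -0.61 to 0.14.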

How the data were processed

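The authors deposited 1 linear signal intensity for each probe set on each array, from what its probe set names show to be an Affymetrix mouse array of 1 colour. Their table appears already scaled, since the mean trimmed by 2% at each end was 100.1 in Mili+/- and 100.05 in Mili-/-. The tool and the background correction used for it are not stated in the sources used here. Of 12488 probe sets, 66 were controls and were left out. In the platform annotation 10833 had 1 gene symbol, 396 several and 1193 none. For 10817 of those with 1 symbol, the symbol was taken from RefSeq (GRCm38.p6), whether or not it differed. Signals were floored at each array's 20th percentile (6.3 in Mili+/-, 7 in Mili-/-), converted to log2 and set relative to the array median. The 5 brightness bins divide the 5095 genes past the filter by mean log2 signal. With 1 array per genotype, no test was made, and the number of arrays limits the precision. Genes named are all members, the up to 4 partners per pathway with the largest absolute difference from 0, and cell type markers. Rbpj, Psen2, Apc, Frat2, Spop and Fkbp8 were named after their values were seen. Members and lists were chosen with earlier results of these data known. Alternatives changed the centring, floor, filter, fold limit, choice of probe sets and symbols. The code was tested on simulated data. Python 3.11.15, NumPy 2.4.6, pandas 2.3.3, statsmodels 0.14.6 and matplotlib 3.10.9 were used.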

Additional observations from a re-analysis of the deposited data

How the results depend on the processing

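The 1 gene at 2-fold higher (Wnt5b) and the 1 at 2-fold lower (Jag2) were also called without centring, with quantile normalization and with loess. The counts stayed the same with no floor, the mean over probe sets, without suffixed probe sets and with symbols as annotated. Leaving out the centring adds 0.11 to every difference, too little to undo either call. Over all 5095 genes it changed the counts from 16 higher and 27 lower to 30 higher and 17 lower. Dropping the floor, averaging probe sets or leaving out suffixed ones could not undo either call. Jag2 and Wnt5b each have 1 probe set without a suffix, with both signals over the floors. Symbols as annotated left both values unchanged. With the floor at the 40th percentile 0 genes were lower, with Jag2 at -0.85. With the filter at the 75th percentile, or with both arrays required to reach the median, 0 were higher and 0 lower, because neither gene passes. Without the filter 4 were higher and 2 lower (157 and 148 of all 8251 genes); at 1.5-fold 3 were lower, and at 3-fold 0 were higher. The median of the pathway genes, -0.06, was 0.048 without centring, 0.023 with quantile normalization, 0.043 with loess, -0.21 with the filter at the 75th percentile (8 genes), -0.13 with the mean over probe sets and -0.21 without suffixed probe sets (25 genes), and its distance from the median of all genes ran from -0.08 to 0.06. Partner medians without centring, with quantile normalization and with loess were -0.013, 0.0023 and 0.018 for Notch, -0.096, -0.076 and -0.071 for Wnt, and 0.023, 0.054 and 0.058 for Hedgehog; for Wnt it was -0.12 without the filter and -0.14 under the stricter one at the 75th percentile. With the mean over probe sets, which takes in dim ones, 4 single genes moved by more than the SD between probe sets: Dvl2 to -0.13, Fzd4 to -0.33, Lef1 to -0.55 and Notch2 to 0.14. No paired analysis was possible because each genotype had 1 array. No replicate could be left out for the same reason.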

Other observations

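The genes around beta-catenin itself were counted above among the 26 Wnt partners past the filter, but apart from Apc were not named there. Ctnnb1, which encodes beta-catenin, had signals of 1091 in Mili+/- and 1022 in Mili-/- (log2 difference -0.20). Within its destruction complex, Apc had 46.7 and 61.6 (0.29), the kinase gene Gsk3a 1235 and 1206 (-0.14), Csnk1a1 664 and 581 (-0.30) and the ubiquitin ligase gene Btrc 89 and 75 (-0.36). Apc was the highest of the Wnt partners past the filter and read opposite to Axin1 (-0.45), the scaffold of the same complex. The coreceptor gene Lrp6 had 152 and 151 (-0.12), at the median of all genes, and Wls, which carries Wnt proteins to the cell surface, 83.5 and 74.1 (-0.28). The chromatin helicase genes Ruvbl1 (289 and 349; 0.16) and Ruvbl2 (121 and 147.5; 0.17), whose proteins work as partners, both read higher. These genes were named after their values were seen, and no replicate array bears on any of them.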
